A study of Arabidopsis thaliana with 12 samples.

Results

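The transcripts described here are those that were lower in sdg8hub2 double-mutant seedlings of Arabidopsis thaliana while both single mutants stayed close to wild type. They are read by 111 of 22746 probe sets, a probe set being the group of short probes on the array that reads 1 transcript or several related ones. Each was chosen on the measured values themselves. On log2 signals, with intensities under 16 set to 16, the mean of the 3 sdg8hub2 arrays lay at least 0.8 below the wild-type mean, which is a 1.74-fold difference. The sdg8 and hub2 means each differed from wild type by less than 0.5, the wild-type mean was at least 7, and all 3 sdg8hub2 arrays lay below the other 9. AT1G36390 also met these limits but was set aside by name. GAT1_2.1, SWEET4 and AT2G47880 were set aside by name too, and did not meet the limits. Because the rule used all 4 groups, the differences between them that follow describe the members and are no evidence for them.

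SDG8 is a histone methyltransferase that marks a lysine of histone H3 along transcribed genes. HUB2 forms with HUB1 a ubiquitin ligase that attaches a single ubiquitin to histone H2B. Both marks are found over the bodies of transcribed genes and are known to accompany elongation by RNA polymerase II, and loss of either enzyme alters growth and flowering time in Arabidopsis.

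RNA came from whole seedlings of ecotype Columbia, 6 days old, kept at 22 °C under days of 16 h light and nights of 8 h. The 4 groups of 3 arrays are wild type, sdg8, hub2 and sdg8hub2, named by genotype with no allele given, and the labels call the 3 arrays of a group biological replicates grown independently. Probe sets of SDG8 and HUB2 have no name in the annotation used, so the targeted genes were not checked. In RNA of whole seedlings, fewer cells of a type and less RNA per cell cannot be told apart.

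The arrays had been brought to a common scale by the authors, with a mean intensity of 500 after trimming 2% at each end, and their number limits the precision. Of 18196 probe sets tested, 10.5% were lower in sdg8hub2 than in wild type and 8.01% higher (limma, Benjamini-Hochberg adjusted p under 0.05). Higher calls made up 43.3% of the calls in that comparison, and 57.4% with median centring. In sdg8 against wild type the share was 44.9%, and 56.7% with median centring, and in sdg8hub2 against hub2 it was 42.1%, and 59.0% with median centring. In sdg8 against hub2 it was 45.7%, and 59.4% with median centring. The median difference of all probe sets tested between sdg8hub2 and wild type was -0.05 on the log2 scale, and 0.03 with median centring. One array of hub2, replicate 2, stood apart in the control probe sets for RNA integrity, with a 3′ minus 5′ difference for GAPDH of 1.66 on the log2 scale against 0.35 to 0.84 on the other 11. The same difference was 0.35 to 0.56 in sdg8hub2 and 0.59 to 0.84 in wild type, without overlap, while that of actin overlapped, at 3.17 to 3.40 and 2.85 to 3.38. On the second pair of control probe sets the GAPDH difference was -0.16 to -0.09 in sdg8hub2 and -0.19 to 0.08 in wild type, which overlap. The part of RNA integrity in the differences described here was not tested.

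Of the 111 members, 54 have 1 gene symbol, 4 have several and 53 are unnamed here. The double-mutant means lay 1.74-fold to 3.66-fold below wild type, with a median of 1.95-fold. At least 2-fold was reached by 44 members and 3-fold by 2. The gap between the highest sdg8hub2 array and the lowest of the other 9 had a median of 0.36 on the log2 scale. It was at least 0.5 for 28 members and under 0.1 for 16. All 111 were called lower than wild type in the fit over all probe sets (background 10.5%), a comparison the rule used. The 3 double-mutant arrays were alike over the members, with medians of -0.97, -0.99 and -0.96 from the wild-type mean for replicates 1, 2 and 3. Each was the lowest of the 3 for a similar number of members, 36, 40 and 35. Within groups, the median SD of the members was 0.12 in wild type and 0.18 in sdg8hub2 on the log2 scale.

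Of the named members, AT1G50140 differed most. It encodes a nucleoside triphosphatase of the AAA type. Its intensities were 245, 216 and 235 in wild type, 272, 267 and 313 in sdg8, 210, 310 and 270 in hub2, and 87, 114 and 45 in sdg8hub2, 3.05-fold lower than wild type. All 3 double-mutant arrays lay under 120 units and the other 9 above 200, and replicate 3 was the lowest of all. Its other probe set, dim on all arrays at 16 to 76 units, had a difference of only -0.14 on the log2 scale, with overlapping groups. The member with the largest difference of all is unnamed here. It read 1025, 952 and 936 in wild type, 722, 838 and 911 in sdg8, 975, 940 and 930 in hub2, and 244, 287 and 266 in sdg8hub2, a 3.66-fold difference with a wide gap between the double mutant and the rest.

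**Figure D1:**
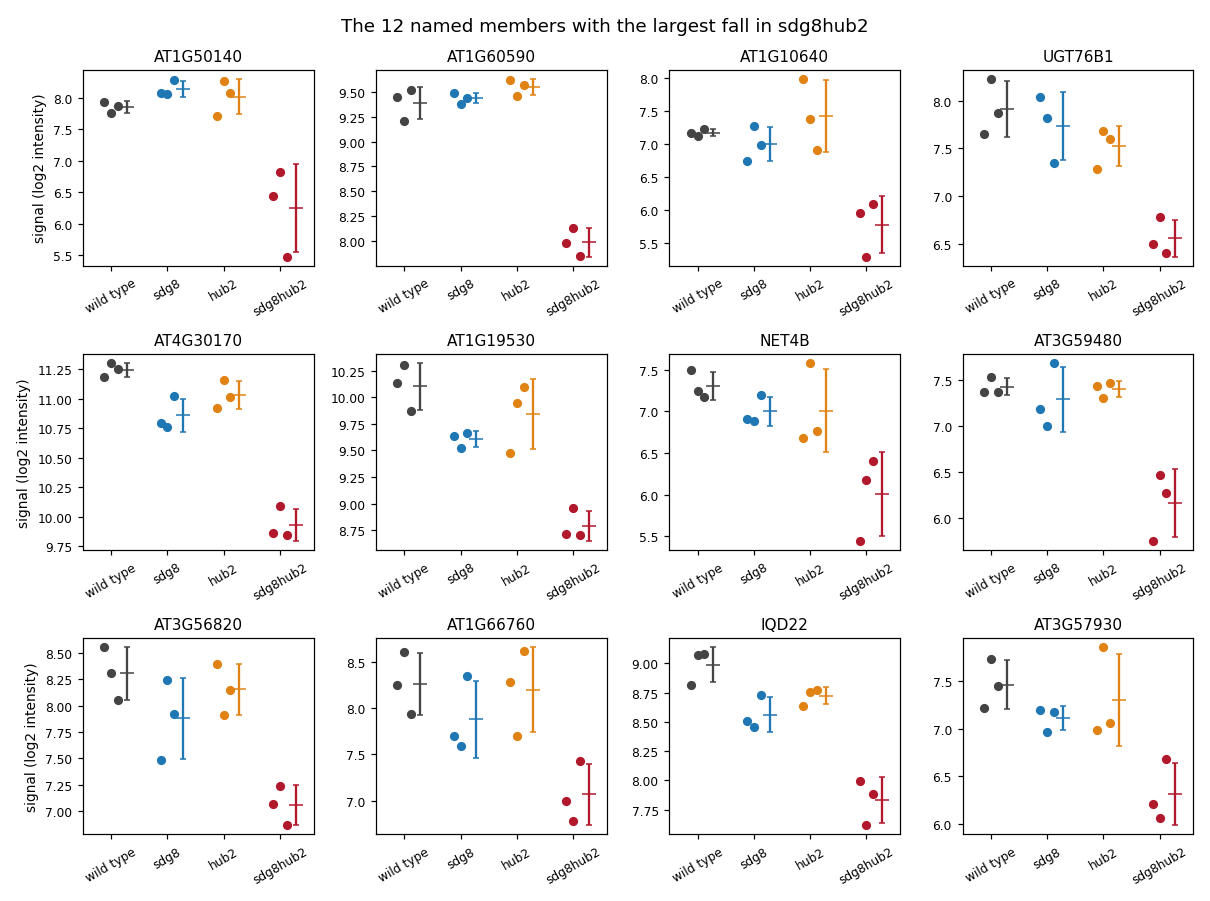
Log2 signal on each array (points) with group mean and SD (horizontal bar and error bar, n = 3) for the 12 named members with the largest difference between sdg8hub2 and wild type; the vertical axes differ between panels and do not start at 0. In each panel the 3 sdg8hub2 arrays lie below the other 9, which the choice of members requires, while sdg8 or hub2 overlap wild type in most panels and neither does for AT4G30170 and IQD22.

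The named members fall into several kinds of proteins. The grouping follows common knowledge of the genes and was made with their values in view. How many of all named genes tested belong to each kind was not counted, so nothing is read from the sizes of the kinds. The largest kind, with 10 members, acts in the cell wall or outside the cell: enzymes that cut pectin, an expansin, peroxidases and proteases. Their double-mutant means lay 1.74-fold to 2.65-fold below wild type, with a median of 2.04-fold. AT1G60590 and AT1G10640 belong to the polygalacturonase family, whose enzymes cut pectin. AT1G60590 stood at 698, 590 and 734 in wild type, 719, 668 and 694 in sdg8, 788, 706 and 763 in hub2, and 252, 280 and 230 in sdg8hub2 (2.65-fold). Both single mutants overlapped wild type, and no double-mutant array reached 300 units. AT1G10640, 2.63-fold lower, was dimmer, with 144, 140 and 150 in wild type, 108, 155 and 127 in sdg8, 255, 167 and 120 in hub2, and 62, 39 and 68 in sdg8hub2. Here the hub2 arrays were widely spread and replicate 1 was the highest of the 12.

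Class III peroxidases, secreted enzymes that can stiffen or loosen walls, supplied 3 named members. AT4G30170 had intensities of 2330, 2524 and 2440 in wild type, 1773, 1737 and 2081 in sdg8, 1939, 2288 and 2064 in hub2, and 932, 1090 and 919 in sdg8hub2, a 2.49-fold difference. Both single mutants lay entirely below wild type, and the double mutant far below both. AT3G01190 (1.78-fold) ranged from 1172 to 1287 units in wild type, 848 to 1155 in the single mutants and 548 to 809 in sdg8hub2. AT4G11290 (1.76-fold) ranged from 252 to 343, 208 to 291 and 158 to 189 in the same order, with single mutants that overlap wild type. AT3G62820, of the invertase and pectin methylesterase inhibitor family, was 2.12-fold lower, and the subtilase gene SBT4.12, coding for a secreted protease, 2.08-fold. AT5G44380, of the berberine bridge enzyme family, was 2.00-fold lower. Its single mutants lay slightly under wild type, at 521 to 559 against 564 to 598 units, and the double mutant at 272 to 316. The aspartyl protease gene AT3G51330 and the expansin gene EXPB1, whose family loosens walls, were at the edge of the choice with 1.74-fold and 1.76-fold. EXPB1 read 183, 183 and 131 in wild type and 84, 92 and 104 in sdg8hub2, and the lowest sdg8 array, at 106, lay 0.04 above the highest of the double mutant on the log2 scale.

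Root hair markers were lower too, though not only in the double mutant. Of 12 symbols listed for root hairs, 2 were measured and named, the wall-loosening expansins EXPA7 and EXPA18, and both fell in sdg8hub2, by 0.66 (SE 0.20, limma adjusted p = 0.0216) and 0.81 (SE 0.16, adjusted p = 0.00108) on the log2 scale, against 9.31% of named genes called lower. EXPA18 read 389, 410 and 397 in wild type, 277, 326 and 215 in sdg8, 287, 279 and 322 in hub2, and 196, 220 and 275 in sdg8hub2. It fell in sdg8 as well, where 7.03% of named genes were called lower, and all 9 mutant arrays lay below wild type. EXPA7 was at 226, 239 and 270 in wild type, 197, 154 and 186 in sdg8, 243, 212 and 191 in hub2, and 125, 137 and 216 in sdg8hub2. Its call was lost in 5 of 19 alternatives, among them without wild type replicate 2 or 3, without sdg8hub2 replicate 1 or 2 and without the variance trend. The summed intensity of both markers was 615 to 666 in wild type, 400 to 479 in sdg8, 490 to 530 in hub2 and 320 to 490 in sdg8hub2. Of the other listed seedling markers, the root gene PYK10 had a difference of -0.16 and the leaf gene RCA, for Rubisco activase, one of 0.02, and neither passed the test. The part of root hairs in the members' differences was not tested.

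Enzymes of specialised metabolism and conjugation gave 7 named members, 1.81-fold to 2.57-fold below wild type. UGT76B1, a glycosyltransferase known to conjugate isoleucic acid and salicylic acid and thereby to dampen defence, led them. Its intensities were 201, 300 and 234 in wild type, 264, 225 and 162 in sdg8, 156, 205 and 194 in hub2, and 90, 110 and 85 in sdg8hub2, 2.57-fold lower. The single mutants overlapped wild type, with the highest double-mutant array still clear of the lowest hub2 array. A second glycosyltransferase gene of the same superfamily, AT5G03490, had a difference of -0.92 on the log2 scale, with 259 to 352 units in wild type and 128 to 177 in sdg8hub2, close under the lowest hub2 array at 185.

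AT3G19000 and AT3G19010 encode enzymes of the 2-oxoglutarate-dependent dioxygenase superfamily and lie beside each other on chromosome 3, with 1 other gene model between them. They were the only members that follow each other among the named genes measured. AT3G19000 had intensities of 705, 597 and 555 in wild type, 562, 514 and 637 in sdg8, 500, 509 and 532 in hub2, and 302, 302 and 258 in sdg8hub2 (2.15-fold). AT3G19010 had 405, 378 and 381, then 309, 283 and 329, then 256, 359 and 375, and 201, 244 and 160 in the same order (1.95-fold). The gap to the other 9 arrays was wide for the first, 0.73 on the log2 scale, and narrow for the second, 0.07, where hub2 replicate 1 came close to the double mutant.

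AT5G19440, an alcohol dehydrogenase-like gene, was the brightest named member. It read 3130, 2931 and 3397 in wild type, 2723, 2752 and 2930 in sdg8, 2392, 2255 and 2315 in hub2, and 1893, 1577 and 1747 in sdg8hub2, 1.81-fold lower. Its arrays form a staircase, with hub2 below sdg8 and the double mutant below hub2. The epoxide hydrolase gene AT3G05600 (2.12-fold) and the methyltransferase gene AT1G69523 (-1.07 on the log2 scale) shared another order, with the sdg8 mean above wild type and the hub2 mean below it. AT1G69523 stood at 402, 379 and 442 in wild type, 487, 441 and 465 in sdg8, 299, 274 and 303 in hub2, and 170, 205 and 209 in sdg8hub2. The 3 hub2 arrays thus lay between wild type and the double mutant, without overlap.

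Among genes of central carbon and lipid metabolism, PPDK, for pyruvate orthophosphate dikinase, showed the opposite order. Its intensities were 1625, 1494 and 1649 in wild type, 1151, 1101 and 1119 in sdg8, 1838, 2160 and 1733 in hub2, and 787, 706 and 780 in sdg8hub2, a difference of -1.07 on the log2 scale. The sdg8 arrays were lower and the hub2 arrays higher than all wild-type arrays, while the double mutant lay below all of them. SBT4.12 and the lipid transfer protein gene AT2G37870 had the same order of group means. AT3G59480, a fructokinase-type sugar kinase gene, was 2.41-fold lower, with 166, 186 and 166 in wild type, 146, 128 and 207 in sdg8, 173, 158 and 178 in hub2, and 54, 88 and 77 in sdg8hub2. Both single mutants overlapped wild type.

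IVD encodes the mitochondrial dehydrogenase that breaks down leucine. It read 1374, 1260 and 1417 in wild type, 1388, 1172 and 1385 in sdg8, 1465, 1574 and 1656 in hub2, and 767, 762 and 697 in sdg8hub2 (1.82-fold), with the double mutant far from the other 9. ACLA-3, a subunit of the enzyme that makes acetyl-CoA from citrate in the cytosol, had 1495, 1569 and 1466 in wild type, 1280, 1137 and 1093 in sdg8, 1190, 1394 and 984 in hub2, and 831, 845 and 865 in sdg8hub2 (1.78-fold). Here all 6 single-mutant arrays lay below wild type. The acyl carrier protein desaturase gene AT5G16240 and the GDSL lipase gene AT2G04570 complete this kind, with differences of -0.92 and -0.86 on the log2 scale. Its 7 members lay 1.78-fold to 2.41-fold below wild type.

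Transport proteins gave 5 named members. AT1G66760 and AT1G15180 are efflux transporters of the MATE family. AT1G66760 had 306, 390 and 245 in wild type, 208, 192 and 328 in sdg8, 312, 208 and 393 in hub2, and 127, 110 and 172 in sdg8hub2 (2.30-fold). All 3 other groups were widely spread, and the lowest sdg8 array came within 0.16 of the highest double-mutant array on the log2 scale. AT1G15180 (1.88-fold) was at 857 to 922 in wild type, 701 to 953 in the single mutants and 409 to 549 in sdg8hub2. SWEET2, a sugar carrier of the vacuolar membrane known from roots, had 1392, 1630 and 1406 in wild type, 1271, 1306 and 1537 in sdg8, 1184, 1046 and 1257 in hub2, and 824, 776 and 925 in sdg8hub2 (1.75-fold). Wild type and sdg8 overlapped, hub2 lay between them and the double mutant. CHX20, a cation and proton exchanger of guard cells, was 1.97-fold lower, and AT5G50740, of the heavy metal-associated domain proteins, 1.76-fold. A second, dimmer probe set of AT5G50740 had a difference of -1.13 on the log2 scale, where sdg8hub2 read 76, 45 and 13 and wild type 101, 84 and 68, so that the groups overlap.

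Signalling, redox and cytoskeletal proteins made up 8 named members, with a median of 1.99-fold. NET4B, of a family that links actin filaments to membranes, was 2.45-fold lower, from 181, 151 and 144 in wild type, 121, 118 and 147 in sdg8, and 103, 192 and 109 in hub2 to 44, 72 and 85 in sdg8hub2. The double-mutant arrays themselves were spread, with an SD of 0.50 on the log2 scale. IQD22, of a calmodulin-binding family, had 450, 537 and 542 in wild type, 363, 351 and 424 in sdg8, 398, 433 and 437 in hub2, and 256, 197 and 236 in sdg8hub2 (2.23-fold), with both single mutants below wild type. AT4G14480, also named BLUS1 for a kinase of blue light signalling in guard cells, was 1.89-fold lower with almost no gap. Its highest double-mutant array, at 107 units, lay just under the lowest hub2 array at 108. The glutaredoxin gene AT2G30540 lies near NET4B on chromosome 2, with 5 other gene models between them. It read 210, 211 and 211 in wild type, 310, 261 and 281 in sdg8, 215, 257 and 255 in hub2, and 117, 93 and 114 in sdg8hub2 (1.96-fold). All 6 single-mutant arrays lay above wild type and all 3 of the double mutant below it. SIS, a gene named for its induction by salt, was 2.02-fold lower. It was high on 2 single arrays, sdg8 replicate 1 at 796 and hub2 replicate 1 at 951, against 384 to 579 on the others outside the double mutant. The auxin-responsive gene AT4G12980 (2.04-fold), AT1G04770 (1.84-fold), a tetratricopeptide relative of a sulfur starvation gene, and AT5G26280 (1.81-fold), of the TRAF-like family, are the other 3. AT5G26280 was at 1253, 1353 and 1188 in wild type, 1099, 757 and 859 in sdg8, 1056, 1230 and 1093 in hub2, and 731, 729 and 633 in sdg8hub2, where sdg8 replicate 2 came close to the double mutant.

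Proteins of the nucleus and organelles or acting on nucleic acids gave 6 named members, AT1G50140 among them by its grouping here. AT1G76110, with an HMG box and an ARID domain, both of which bind DNA, was 1.95-fold lower, with sdg8 and hub2 means above wild type by 0.27 and 0.19 on the log2 scale. AT3G03590, of the SWIB domain family (2.08-fold), AT3G13226, related to bacterial RecX (2.07-fold), the WD40 repeat gene AT5G54200 (1.91-fold) and the pentatricopeptide repeat gene AT1G30290 (1.75-fold) belong here too. For the remaining 11 named members no role is given, and they were 1.74-fold to 2.48-fold lower. AT1G19530 had 1123, 1266 and 935 in wild type, 794, 738 and 811 in sdg8, 711, 989 and 1097 in hub2, and 421, 496 and 417 in sdg8hub2 (2.48-fold). AT3G56820 had 377, 317 and 266, then 179, 303 and 242, then 337, 241 and 284, and 134, 151 and 117 in the same order (2.38-fold). In AT1G19530 the sdg8 arrays all lay below wild type, and in AT3G56820 sdg8 replicate 1 alone came near the double mutant. AT3G57930 (2.21-fold) read 148, 213 and 174 in wild type, 146, 125 and 145 in sdg8, 127, 232 and 134 in hub2, and 74, 67 and 103 in sdg8hub2. AT5G13100 (2.09-fold) read 1330, 1505 and 1493 in wild type, 1304, 1396 and 1303 in sdg8, 1040, 995 and 1236 in hub2, and 739, 666 and 664 in sdg8hub2, with hub2 between wild type and the double mutant. AT5G27290 (2.03-fold), AT2G39580 (2.01-fold), AT3G16220 (1.91-fold), AT1G73090 (1.89-fold), AT1G13990 (1.82-fold), AT1G63420 (1.75-fold) and AT1G52910 (1.74-fold) complete the named members.

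**Figure D2:**
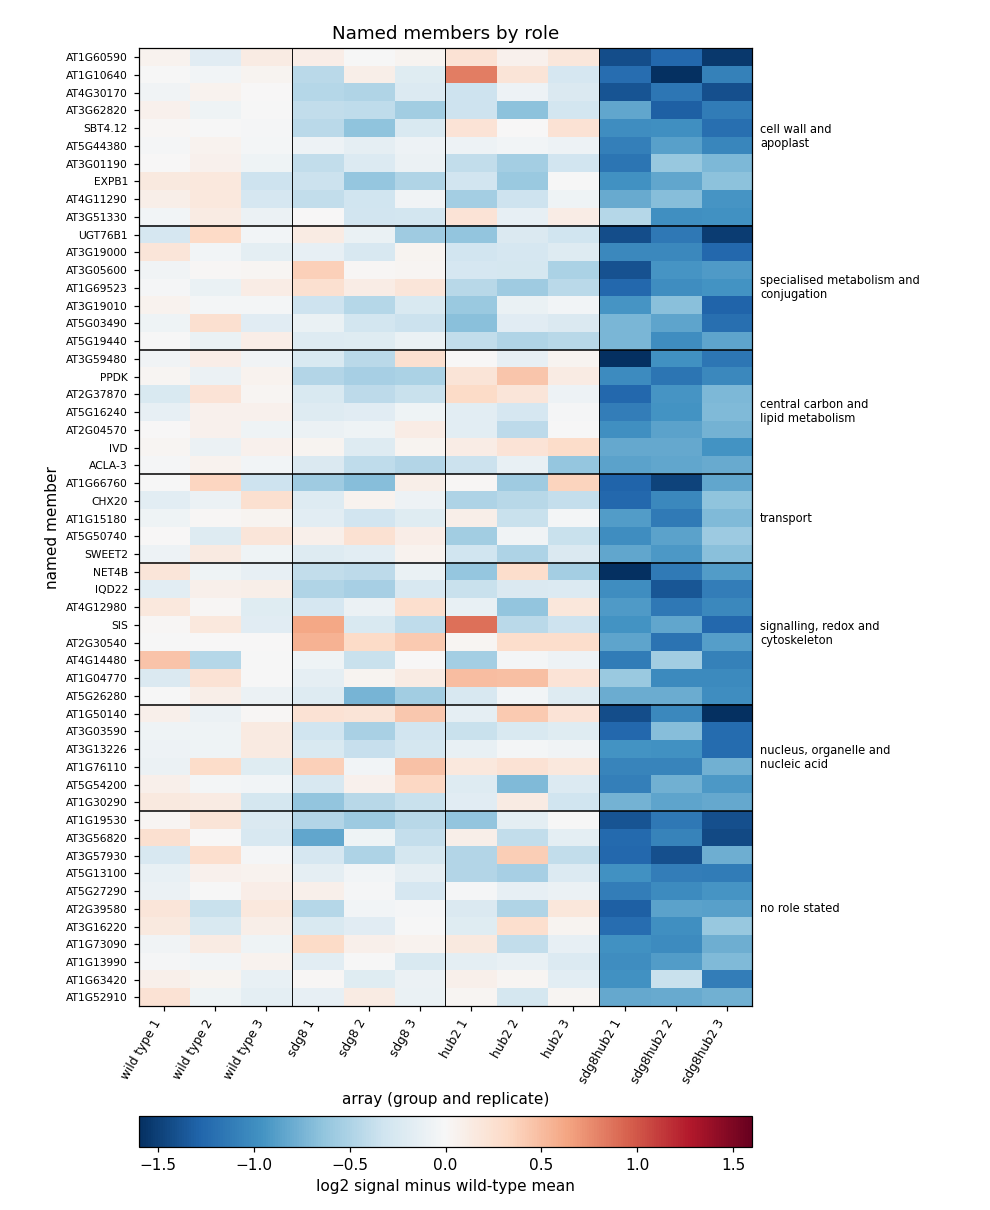
Log2 signal minus the wild-type mean for the 54 named members (rows, by role) on the 12 arrays (columns); blue is below and red above the wild-type mean. The 3 sdg8hub2 columns are blue, palest for AT1G63420 on replicate 2, which the choice of members requires, while the single-mutant columns are mostly pale blue with red cells in members such as AT1G50140 and AT2G30540, and single arrays such as hub2 replicate 1 stand out for AT1G10640 and SIS.

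The single mutants were not all alike within their limits. Both single-mutant means lay below wild type for 70 of the 111 members (63.1%), and both lay above for 9. Among 10054 probe sets tested that met the same limits on the single mutants and on the wild-type mean, 27.9% had both means below. The median difference from wild type over the members was -0.18 in sdg8 and -0.14 in hub2 on the log2 scale, against -0.02 and 0.00 over all probe sets tested. These comparisons share the wild-type arrays with the comparison that chose the members, so a high wild-type mean enters all 3.

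By size, 30 members, 15 of them named, had both single-mutant means within 0.2 of wild type. AT1G60590, AT3G59480, AT5G44380, AT5G27290 and SIS are among them. For SIS only the means were close. Against the wild-type array of the same number, sdg8 stood at 0.61 on replicate 1 and -0.41 on replicate 2, and hub2 at 0.86 on replicate 1. In another 31, again 15 of them named, the 2 single-mutant differences added up on the log2 scale to at least 50% of the double-mutant difference. For AT3G62820 they were -0.45 and -0.43 against -1.08 in the double mutant, for ACLA-3 -0.37 and -0.36 against -0.83, and for AT1G19530 -0.50 and -0.26 against -1.31. In 9 members the sum came within 0.2 of the double-mutant difference, and in all 111 the double mutant lay below it. The rule nearly fixes this, since it holds each single-mutant difference under 0.5 and the double mutant at -0.8 or lower. A further 8 members, of which AT1G50140, AT2G30540, AT1G76110 and AT1G04770 are named, had both single means above wild type and at least one beyond 0.2. The opposite orders described for PPDK and for AT1G69523 were held by 4 and 5 members, counted where the lower single mutant was at least 0.2 below and the other at least 0.1 above wild type.

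**Figure D3:**
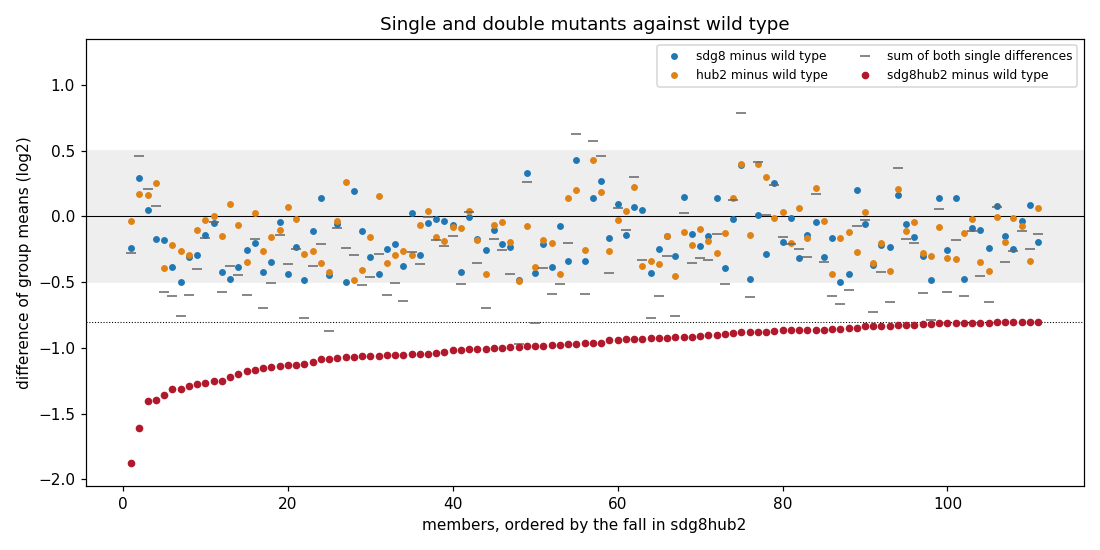
Difference from wild type (log2, group means of 3 arrays) for each of the 111 members, ordered by the double-mutant difference: sdg8 (blue), hub2 (orange), their sum (grey dash) and sdg8hub2 (red). The grey band and the dotted line mark the limits of 0.5 and -0.8 in the rule. The red points lie below the sum for all 111 members, by amounts from 0.02 to 2.06, which these limits nearly fix.

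In the fit over all probe sets, 17 members were called in sdg8 against wild type, 16 lower and 1 higher (background 14.3%, made up of 7.86% lower and 6.41% higher). In hub2 5 were called, 4 lower and 1 higher (background 2.85%, 1.46% lower and 1.4% higher). So 20 of the 111 were called in at least 1 single mutant and 91 in neither, and these comparisons enter the rule too. No share over all probe sets is given for these joint counts, so nothing is read from them. Those called lower in sdg8 that have a name are AT4G30170, AT1G19530, IQD22, AT3G62820, PPDK, SBT4.12, AT5G26280 and ACLA-3, and those in hub2 are AT5G13100 and AT5G19440. With 1 wild-type array left out, the members called in sdg8 were 7, 9 and 11 and those in hub2 2, 2 and 1 for replicates 1, 2 and 3. Calls over all probe sets fell as well, in sdg8 from 2598 to 1768, 1852 and 1975. In hub2 they fell from 519 to 210, 294 and 247. Without sdg8 replicate 2 or 3 the members called in sdg8 were 8 and 11 (1881 and 2243 over all probe sets). Without hub2 replicate 1 or 3 those called in hub2 were 2 and 3 (344 and 338 over all probe sets). Without sdg8hub2 replicate 1 they were 8 (492 over all probe sets). With median centring the counts were 10 and 2, without the variance trend 9 and 0, and with a filter at the median signal 17 and 9. Over all probe sets these settings gave, in the same order, 2479, 1780 and 2554 calls in sdg8. In hub2 they gave 340, 127 and 628.

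Against sdg8 the double mutant was called lower for 106 members (background 7.72%), and against hub2 also for 106 (background 9.85%). These were in part different ones, since 102 were called lower against all 3 other groups, a joint count given without its share over all probe sets. Named members not called against sdg8 are AT5G26280, EXPB1 and AT1G30290, and those not called against hub2 are CHX20, AT5G54200, AT4G14480, EXPB1 and AT5G50740. The interaction asks whether the double-mutant difference departs from the sum of the single ones. It was called below the sum for 49 members (background 3.41%) and above it for 0 (background 3.05%). Without the variance trend it was called for 28 members, while calls over all probe sets went from 1175 to 530. Of the 49, 22 are named, including AT1G50140, AT1G60590, AT1G10640, AT4G30170, PPDK, AT2G30540 and IVD. UGT76B1, NET4B and SWEET2 are among the 32 named members that were not called. Over named genes the interaction was called for 5.5% in either direction. All these comparisons enter the rule, and nothing is read from their counts. Between the single mutants, 12 members were called (background 16.1%), 6 lower in sdg8 (background 8.73%) and 6 higher (background 7.34%). Without the variance trend 5 were called in all, while calls over all probe sets went from 2925 to 1973. PPDK and SBT4.12 are the named ones lower in sdg8 than in hub2, and AT3G05600, AT1G69523 and AT5G19440 the named ones higher.

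Values that the choice did not use come from leaving 1 array of each group out of the rule. The rule was applied to 2 replicates of every group and the left-out arrays were then compared. The probe sets chosen in this way are not the same as the 111 members. With replicates 1, 2 and 3 left out, 89 of 160, 78 of 149 and 77 of 145 were members, so the shares below describe the rule more than the members. With replicate 1 left out, 160 probe sets met the rule, with a median difference of -0.93 on the arrays that chose them. On the left-out arrays their median was -0.74, 96.9% were lower in sdg8hub2 than in wild type, and 88.1% were lower in sdg8hub2 than in each of the 3 other groups. Over all 11928 probe sets tested with a wild-type mean of at least 7 on the choosing arrays, those shares were 55.3% and 31.1%. With replicate 2 left out, the median of 149 probe sets went from -0.97 to -0.88, and 98.0% and 83.9% were lower in the 2 senses, against 54.7% and 28.3% of all. Replicate 3 gave the weakest repeat. The median of 145 probe sets went from -0.97 to -0.70, and 89.0% and 78.6% were lower, against 51.6% and 30.9% of all. The full 0.8 was reached on the left-out arrays by 46.2%, 57.0% and 40.0% of the probe sets chosen, against 5.93%, 6.32% and 4.54% of all. With 1 left-out array a group there is no test, and in all 3 cases the median was nearer to 0 on the left-out arrays than on those that chose the probe sets.

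**Figure D4:**
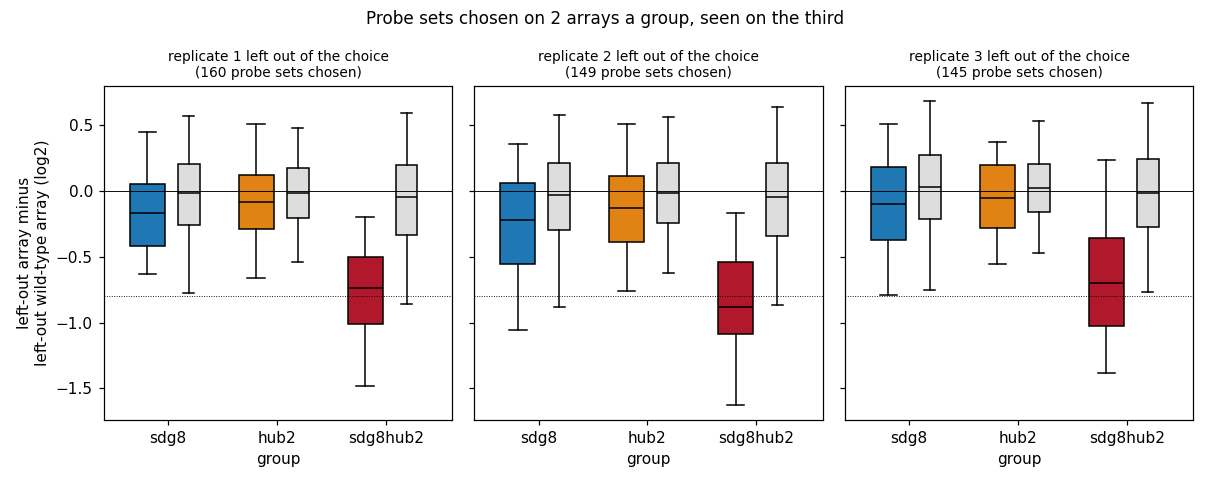
Log2 difference between the left-out mutant array and the left-out wild-type array, for probe sets chosen by the rule on the other 2 replicates (coloured) and for all probe sets tested with a wild-type mean of at least 7 on those 2 replicates (grey); boxes span the 25th to 75th percentile with the median, whiskers the 5th to 95th, and the dotted line marks -0.8. The sdg8hub2 boxes have medians of -0.74, -0.88 and -0.70, while the sdg8 medians are -0.17, -0.22 and -0.10 and the hub2 medians -0.08, -0.13 and -0.06.

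The limit on the fold cut through a continuous range. Just inside it were AT3G51330 (-0.80), AT1G52910 (-0.80), SWEET2 and AT1G63420 (both -0.81 on the log2 scale). Just outside were AT1G69160 and AT3G19680 (both -0.79), AT1G28070 (-0.79) and AT1G23390 (-0.79). The fold alone kept out 638 probe sets, 67 of them by less than 0.1, and the limit on the single mutants alone kept out 85, of which 48 only because sdg8 was lower by 0.5 or more and 12 only because hub2 was. With any 1 of the 12 arrays left out in turn, 48 members met the rule every time. EXPB1 and AT1G30290 met it in only 7 of the 12 cases. Applied with sdg8 in place of the double mutant the same rule found 94 probe sets, and with hub2 it found 3. In the other direction, with the level limit on the higher group, it found 87 probe sets raised only in sdg8hub2, 36 only in sdg8 and 13 only in hub2. Among those raised only in the double mutant, AT2G04070, for a MATE transporter, read 37 to 57 units in wild type and 305 to 359 in sdg8hub2, and AT5G60250 read 23 to 46 and 238 to 258. MPC, the next by size, read 29 to 44 and 122 to 138.

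Members were found on all 5 chromosomes, with 15, 6, 16, 6 and 11 of the named ones on chromosomes 1 to 5, which is 0.57%, 0.402%, 0.78%, 0.409% and 0.466% of the named genes tested there. Genes next to the members were not part of the rule. The nearest named and measured gene on each side gave 105 flanking genes that are not members. Of these, 9 fell in sdg8hub2 against wild type (8.57%) and 7 rose (6.67%), against 9.31% and 7.85% of all 10115 named genes, so that the shares were near the background. Without wild type replicate 1 the flanking genes called fell from 16 to 10, while calls over all probe sets fell from 3367 to 2454. The strongest were AT1G52930, which rose by 0.80 (SE 0.12, limma adjusted p = 3.04e-05) near AT1G52910, and AT5G59080, which rose by 1.01 (SE 0.15, adjusted p = 4.43e-05) near SBT4.12. AT1G30260 fell by 0.63 (SE 0.10, adjusted p = 0.000123) and AT1G19540 fell by 1.28 (SE 0.24, adjusted p = 0.000454) on the log2 scale. AT1G19540 lies next to AT1G19530, and read 195, 224 and 210 in wild type, 88, 55 and 105 in sdg8, 224, 173 and 158 in hub2, and 81, 93 and 85 in sdg8hub2. Unlike its neighbour, it was as low in sdg8 as in the double mutant. Of 28 flanking genes directly next to a member, 3 fell and 1 rose. AT1G69526, next to AT1G69523, fell by 1.11 (SE 0.32, limma adjusted p = 0.017), with sdg8 at -0.11 and hub2 at 0.08 from wild type. AT3G14760, next to SWEET2, fell by 0.92 (SE 0.28, adjusted p = 0.022), with sdg8 at -0.16 and hub2 at -0.52. They were called in 15 and 14 of 18 alternatives.

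Pathways near those of the members were looked at through lists of genes known for nutrient, hormone and light responses, of which few are named in the annotation. Of 16 sugar transporter genes measured, 4 fell in sdg8hub2, 1 rose and 11 did not pass the test, with a median difference of -0.10 against -0.04 for all named genes, of which 9.31% fell and 7.85% rose. SWEET2, a member, and SWEET4, set aside by name, are 2 of the 4. SWEET4 did not meet the limits of the rule, with an sdg8 mean 1.26 above wild type on the log2 scale. SWEET4 was not called without wild type replicate 1 or without sdg8hub2 replicate 1. SWEET16, a vacuolar sugar carrier, and SWEET11, a carrier of the phloem, fell by 0.49 (SE 0.14, limma adjusted p = 0.0146) and 0.23 (SE 0.07, adjusted p = 0.0349). SWEET16 was not called with median centring or without wild type replicate 2. SWEET11 was lower still in sdg8, at 3979 to 4278 units, against 4293 to 4598 in sdg8hub2 and 5046 to 5227 in wild type. SAG29, a sugar carrier gene of senescence, rose by 1.71 (SE 0.30, adjusted p = 0.000316), from 124, 57 and 48 in wild type and 68 to 114 in the single mutants to 213, 221 and 252. So sugar carriers of the same family stood on both sides.

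Of 4 sulfate assimilation genes, 2 fell in sdg8hub2 (9.31% of named genes) and 3 in sdg8 (7.03%). In sdg8hub2 the ATP sulfurylase gene APS4 fell by 0.85 (SE 0.09, adjusted p = 7.54e-07) and the sulfite reductase gene SIR by 0.57 (SE 0.09, adjusted p = 6.23e-05). APS4 read 1484, 1464 and 1472 in wild type, 603, 649 and 648 in sdg8, 1681, 1545 and 1762 in hub2, and 837, 776 and 833 in sdg8hub2, so that it was lowest in sdg8, unlike the members. SIR was lower in sdg8 as well, by a log2 difference of -0.65. HYH, a light signalling transcription factor and the only clock and light gene measured, fell by 0.86 (SE 0.19, adjusted p = 0.00252) and was lower in sdg8 as well, by 1.04. RR16, a cytokinin response regulator, rose by 0.69 (SE 0.17, adjusted p = 0.00661), and the other cytokinin gene, ARR15, did not pass. None of the 4 gibberellin, 4 glucosinolate and 3 CC-type glutaredoxin genes measured from these lists passed in this comparison. Nor did the single genes measured of the nitrate, phosphate, cell cycle and ribosome biogenesis lists. The glutaredoxins measured from the list were ROXY1, ROXY2 and GRX480. They do not include the glutaredoxin gene AT2G30540, a member called lower, so the list does not cover all glutaredoxin genes measured. Of 41 symbols listed for histone H2B ubiquitination and H3 methylation, only UBP26, UBP22 and AT5G08565 were measured and named, and these 3 did not pass. The rest of that list was not looked at. The brassinosteroid list and the pollen and seed storage markers had 0 named genes measured.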

How the data were processed

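Expression was measured on 12 Affymetrix 3′ arrays, 3 in each of 4 groups. Per the submitters' processing notes, the deposited linear intensities were produced by the authors with MAS5 and affy. The version of either is not given in the sources used here, and neither scanner data nor detection calls entered the work. For the rule, intensities were floored at 16 and taken as log2. For the test, they were floored at the 1st percentile (1.18) and the 18196 non-control probe sets with a mean log2 over the 20th percentile, or 18.6 units, were fitted in limma 3.58.1 under R 4.3.3, with a mean per group and an intensity trend in the variances, and 7 contrasts were adjusted by Benjamini-Hochberg. On simulated data for sdg8hub2 against wild type with 18196 probe sets, 55 of 100 changes of 0.8 and 78 of 100 changes of 1.6 (log2) were recovered, with 8 false calls among 141. The simulation used independent normal noise, no floor and far fewer changes than the 3367 called in the real comparison. Its recovered shares therefore need not hold for these data. P-values are two-sided and reflect the spread between independently grown samples.

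Names come from the platform annotation, updated through a RefSeq gene table (TAIR10.1) used only for names, chromosomes and gene order. Of 22810 probe sets, 13513 have 1 symbol, 503 several and 8794 none; 13436 of those with 1 symbol matched the table. A gene with several probe sets was read through the brightest. The members, lists and tests were chosen with earlier results of these data known. The text names all members with 1 symbol, and gives per-array values at least for the 12 with the largest difference and the 8 brightest, besides up to 4 called genes with the smallest p from the lists and the flanking genes, the probe sets at the edge of the rule, the 3 named genes highest in the double mutant under the mirrored rule and a few chosen after their values were seen. Alternatives were another floor, scaling, filter, variance model, a replicate block, other limits of the rule and leaving out each array.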

Additional observations from a re-analysis of the deposited data

Results flagged for a closer look

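The interaction test asks whether the effect of losing HUB2 differed between wild type and the sdg8 background (limma, Benjamini-Hochberg adjusted p under 0.05, background 5.5% of named genes in either direction). It was called for 5 of 44 list and marker genes outside the members, SWEET4, SWEET1, SLY1, UGT74B1 and RCA, and for 11 of 105 flanking genes. The 3 given here are those that are also among the 4 called genes of smallest p per list, or among flanking genes, in sdg8hub2 against wild type, so they are a selection and not the tally. SWEET4 had an interaction of -2.51 on the log2 scale (adjusted p = 4.37e-05): hub2 lay 0.41 above wild type, while sdg8hub2 lay 2.11 below sdg8 (-2.11). It was called in all 18 alternatives in which it was tested. AT1G30260 had an interaction of -0.62 (adjusted p = 0.0119), with hub2 at -0.39 from wild type. It read 1472, 1257 and 1274 in sdg8 and 676, 662 and 654 in sdg8hub2, and was called in all 19 alternatives. AT5G59080 had an interaction of 0.71 (adjusted p = 0.0462), with differences of 0.36 and 1.07, and was called in only 5 of 19 alternatives, and not when any 1 wild-type, hub2 or sdg8hub2 array was left out.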

How the results depend on the processing

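The number of members was 44 with a fold threshold of 1.0 and 55 with a single-mutant limit of 0.3, both subsets by construction. It was 75 with median centring (71 shared with the 111), 91 with quantile normalization (84 shared) and 79 with a wild-type mean of at least 8, and 111 with either other floor. With 1 array left out it was 111 to 151, where fewer arrays also make the rule easier to meet. Over the 111 members, which the same arrays chose, the median difference between sdg8hub2 and wild type stayed between -0.99 and -0.89 in the 15 alternatives. All 111 remained below wild type under each scaling, which a choice at -0.8 or lower all but fixes, though 78 reached 0.8 with median centring. Counts over all probe sets kept within 1.5 times for 5 of the 7 comparisons. In hub2 against wild type 519 were called, 340 with median centring, 127 without the variance trend and 210 to 553 with 1 array left out. For the interaction 1175 were called, 530 without the trend and 805 to 1144 with 1 array left out. Array numbers are shared across groups, but the deviations of same-numbered arrays correlated at only -0.14 to 0.06 (0 of 18 pairs over 0.1). No pairing by number was thus seen in the values, which cannot tell whether same-numbered samples were handled together. With the replicate block 3264 in place of 3367 were called in sdg8hub2 against wild type, 448 in hub2 and 1083 for the interaction. Without detection calls, dim probe sets could not be told from background.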
